A study of Mus musculus with 15 samples.

Results

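The genes of vesicle traffic and of the vacuolar proton pump were followed in the ileum of germ-free mice and of mice that carried a single bacterial species. Genes were taken by symbol alone: Rab, Vps, Snx, Sec, Arf, coatomer, adaptor subunit, syntaxin, Vamp, Trappc and Atp6v or Atp6ap genes. The symbol rule found 83 of the 4178 genes listed, and 81 of these were among the 3530 genes abundant enough to test. It fitted its label except for Sec11c, a signal peptidase subunit, and Sec14l2, a lipid-binding protein, which share only the Sec name. Vamp9, at 0.196 TPM or less in every mouse, and Snx22, at 0.195 to 2.63 TPM, were too low to test.

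All mice were adult germ-free C57BL/6 animals, grouped by what they were gavaged with. The labels give no sex, cage, litter or batch, so a difference in these could not be told apart from the gavage. A group of 5 mice received 200 µl of sterile phosphate-buffered saline (PBS), 5 received Ruminococcus gnavus (RG), a human gut commensal, and 5 received Lacticaseibacillus rhamnosus GG (LGG), a probiotic strain. Whole ileum, the last stretch of small intestine, was taken on day 21, and each mouse gave 1 library. Values are TPM, transcripts per 1e+06 transcripts after scaling each gene by its length, so levels of different genes can be set side by side.

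Membrane and secreted proteins leave the endoplasmic reticulum in vesicles coated with COPII, and COPI coats carry material back from the Golgi. Clathrin adaptors, sorting nexins and Vps complexes sort cargo among the Golgi, endosomes and lysosomes, Arf and Rab GTPases mark where each vesicle forms and docks, and SNAREs fuse it with its target. The vacuolar proton pump acidifies these compartments: its cytosolic V1 sector splits ATP, and its V0 sector in the membrane passes protons. In the gut, enterocytes use this traffic to supply the brush border and to take up luminal protein, and Paneth and goblet cells use it to fill secretory granules.

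Cell type markers of ileum were present, with enterocyte, Paneth, goblet, enteroendocrine, smooth muscle and lymphocyte genes detected in every library. The summed TPM of 17 listed enterocyte markers was 3560 to 5760 in PBS, 6990 to 8950 in RG and 16700 to 23200 in LGG. That of 15 Paneth markers was 81400 to 106000, 75600 to 103000 and 1520 to 19400. That of 4 goblet markers was 17400 to 21700, 8530 to 18100 and 4060 to 10100, and no listed marker of these 3 cell types was at 0 in any library. The table covers part of each library, on average 63.8% ± 2.96 of its TPM for PBS mice, 61.3% ± 3.21 for RG mice and 50.1% ± 1.97 for LGG mice (SD, n = 5), and sequencing depth is unknown. 3 libraries stood apart in genes of other cells: RG mouse 2 in T cell markers (377 TPM summed, against 19.2 to 42.7 in the other RG mice), PBS mouse 1 in the liver gene Alb (556 TPM, against at most 157 elsewhere) and RG mouse 5 in the kidney gene Kap (8.21 TPM, listed at 0 elsewhere). The column headers of PBS mouse 1 and RG mouse 5 also differ in form from the others, and the reason is not given. In bulk tissue, fewer cells of a type and less RNA per cell cannot be told apart.

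Promoter sequences of 66 of the 83 genes were found in RefSeq (GRCm38.p6), each covering 250 bases before to 50 after the gene's start. Of 4 motifs searched on both strands, the pair of 8 letters is tied to lysosomes and to the endoplasmic reticulum. TCACGTGA is the core of the CLEAR element, which the lysosomal regulator TFEB reads, and TGACGTGG is the unfolded protein response element, which XBP1 and ATF6 read. TCACGTGA stood in 2 of the 7 proton pump promoters matched (28.6%), against 304 of all 27025 promoters (1.12%) and 66 of the 3252 promoters of listed genes (2.03%). The windows of the pump genes Atp6v1a (chr16:44139210-44139509, minus strand) and Atp6v0e (chr17:26676146-26676445, plus strand) are shown because they are the pump promoters that hold the motif, which is in capitals.
Atp6v1a: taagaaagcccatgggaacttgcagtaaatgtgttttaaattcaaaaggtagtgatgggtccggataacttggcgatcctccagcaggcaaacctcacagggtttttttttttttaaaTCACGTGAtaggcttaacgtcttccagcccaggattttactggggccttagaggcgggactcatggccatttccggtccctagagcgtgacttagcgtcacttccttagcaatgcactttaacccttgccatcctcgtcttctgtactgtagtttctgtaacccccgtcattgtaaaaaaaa
Atp6v0e: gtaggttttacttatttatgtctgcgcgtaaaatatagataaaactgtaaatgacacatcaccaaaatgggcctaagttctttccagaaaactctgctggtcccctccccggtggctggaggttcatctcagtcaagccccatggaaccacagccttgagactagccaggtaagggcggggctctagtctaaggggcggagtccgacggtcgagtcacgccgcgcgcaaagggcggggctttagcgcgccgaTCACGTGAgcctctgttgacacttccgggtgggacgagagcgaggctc

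TGACGTGG stood in 5 of the 17 matched promoters of COPI, COPII and other Sec genes (29.4%), against 193 of all promoters (0.714%) and 34 of those of listed genes (1.05%). These were Copb1, Copb2, Sec16b, Sec23a and Sec24d. The windows of Copb2 (chr9:98563481-98563780, plus strand), Sec23a (chr12:59011968-59012267, minus strand) and Sec24d (chr3:123267246-123267545, plus strand) are shown because these 3 coat genes recur in the results. Capitals mark the motif, which Copb2 carries as its reverse complement CCACGTCA.
Copb2: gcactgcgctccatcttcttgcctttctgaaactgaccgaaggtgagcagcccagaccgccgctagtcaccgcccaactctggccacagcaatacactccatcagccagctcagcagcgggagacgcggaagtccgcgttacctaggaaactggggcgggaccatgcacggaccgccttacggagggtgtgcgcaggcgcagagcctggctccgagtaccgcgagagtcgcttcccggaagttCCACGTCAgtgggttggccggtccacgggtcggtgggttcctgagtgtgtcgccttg
Sec23a: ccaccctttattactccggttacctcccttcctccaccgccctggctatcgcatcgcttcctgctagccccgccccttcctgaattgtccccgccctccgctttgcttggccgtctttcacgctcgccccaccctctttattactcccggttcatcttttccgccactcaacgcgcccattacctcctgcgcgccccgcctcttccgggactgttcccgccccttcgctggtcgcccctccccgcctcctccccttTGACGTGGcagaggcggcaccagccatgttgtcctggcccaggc
Sec24d: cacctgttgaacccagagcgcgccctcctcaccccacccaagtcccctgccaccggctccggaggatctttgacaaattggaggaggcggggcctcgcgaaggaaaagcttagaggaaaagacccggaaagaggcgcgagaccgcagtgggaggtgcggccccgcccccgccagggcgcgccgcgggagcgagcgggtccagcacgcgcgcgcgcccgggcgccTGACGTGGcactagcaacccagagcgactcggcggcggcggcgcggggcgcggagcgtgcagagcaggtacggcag

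Over all members, TCACGTGA stood in 4 of 66 promoters (6.06%; Arfgef2, Atp6v0e, Atp6v1a and Sec23ip) and TGACGTGG in 5 of 66 (7.58%). The shorter CACGTG, which lies inside TCACGTGA, stood in 7 of 66 (10.6%), against 10.7% of listed genes and 8.09% of all promoters. The longer endoplasmic reticulum stress element, ERSE, was found in 0 of 66, against 0.215% of listed genes and 0.137% of all promoters. A match describes the letters only, and its part in the results below was not tested.

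With LGG most of the machinery was more abundant. Of the 81 genes tested, 67 rose (82.7%) and 4 fell (limma, adjusted p under 0.05), where 54.7% of all genes tested rose and 16.5% fell. All 67 had every LGG mouse above every PBS mouse, a separation seen in 53.0% of all genes, and they rose between 2.15-fold and 3.61-fold. The 4 that fell were Sec11c, Vamp5, Atp6v0b and Vps29, and without PBS mouse 1 and RG mice 2 and 5 the counts were again 67 and 4. Summed over the 83 genes, the share of a library's TPM averaged 0.278% ± 0.0195 for PBS mice, 0.32% ± 0.0506 for RG mice and 0.517% ± 0.0392 for LGG mice (SD, n = 5).

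On the deposited scale no gene of the 81 lay between -0.04 and 1.10 in log2 difference, bounds that the members' own values set. With the trend on transcript length removed 22 members lay there, among them Vps29 (0.36), Sec11c (0.64) and Atp6v0b (0.73). The median of the members was 1.33 and that of all genes tested 1.17, so the members lay 0.16 above the listed genes at large. Libraries were also rescaled to their own typical gene (median-of-ratios scaling), which moves the median of all genes to 0.40. With it 63 members rose and 13 fell and their median was 0.53, where 49% of all genes tested rose and 39.4% fell. The 13 that fell against PBS with this scaling were Ap3s1, Atp6v0b, Atp6v0e, Atp6v1f, Atp6v1g1, Copz2, Rab12, Rab27a, Rab28, Rab9, Sec11c, Vamp5 and Vps29. In the same fit 67 members lay between -0.04 and 1.10. Enterocyte markers (17 of 17 rose) and Paneth and goblet markers (15 of 15 and 4 of 4 fell) moved with this comparison, and their part in the result was not tested.

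**Figure D1:**
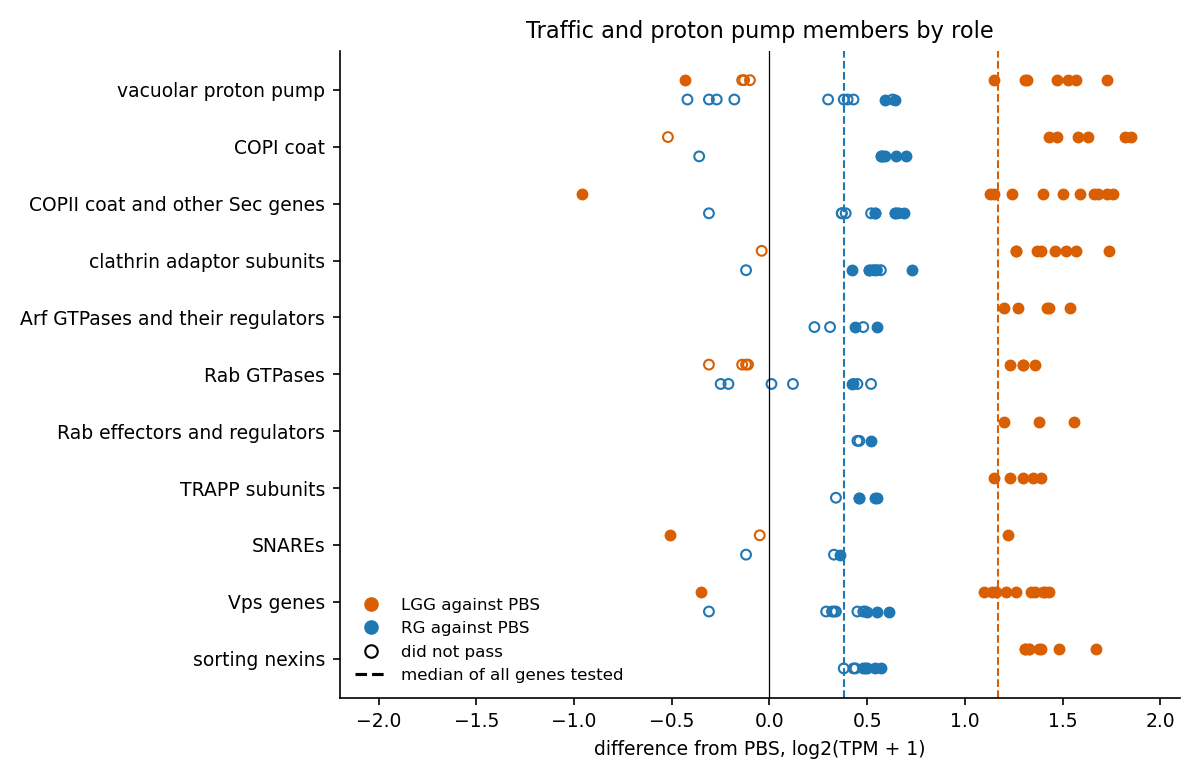
Log2 difference from PBS of each tested gene, by role, for LGG (orange) and RG (blue), each with 5 mice against the same 5 PBS mice. Filled points passed the test and open points did not; the dashed lines are the medians of all genes tested, 1.17 for LGG and 0.38 for RG. On this scale the LGG points lie at 1.10 or more or at -0.04 or less, and the RG points lie nearer to 0. That gap holds 289 of all genes tested (8.19%), and 22 members once the length trend is removed or 67 with median-of-ratios scaling. With that scaling the medians of the Rab GTPases become negative for both.

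The COPI coat rose furthest. Of its 7 genes 6 rose, with a median of 1.58 on the log2 scale (0.74 with median-of-ratios scaling). Copb2, which encodes the β' subunit (chromosome 9, 98563721 to 98588382), was at 41.6, 35.6, 26.1, 34.5 and 36.1 TPM in PBS mice 1 to 5 and at 108, 131, 110, 167 and 126 in LGG mice 1 to 5. Every LGG mouse was far above every PBS mouse, a log2 difference of 1.85 (SE 0.18, adjusted p = 2.27e-07). Copa, the α subunit that binds retrieval signals, was at 32.2, 28.3, 22.6, 32.5 and 31.2 TPM in PBS and 94.9, 104, 98.4, 133 and 100 in LGG, a difference of 1.82 (SE 0.173, adjusted p = 2.02e-07). LGG mouse 4 was highest in both genes, as it was in 52 of the 81 members. The β subunit Copb1 rose by 1.63, the γ subunits Copg1 and Copg2 by 1.58 and 1.47, and Arcn1, the δ subunit outside the symbol rule, by 1.45.

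The ζ subunit of COPI is encoded by a pair of genes; both were singled out after their values were seen. Copz1 was at 37.5, 43.6, 26.1, 37.9 and 38.7 TPM in PBS and at 87.8, 122, 90.7, 99.8 and 99.9 in LGG (1.43, adjusted p = 2.32e-06). Copz2 was at 24.3, 18.0, 18.9, 25.6 and 15 TPM in PBS and at 12.2, 7.89, 17.0, 16.5 and 16.9 in LGG, overlapping groups with a difference of -0.52 that did not pass (adjusted p = 0.111). Copz2 went from below Copz1 in every PBS mouse to a wider gap in every LGG mouse. Copz2 transcripts measure 930 nucleotides and those of Copz1 2057, and with the trend on length removed Copz2 was at 0.70 (adjusted p = 0.0634).

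The COPII coat rose in its inner and outer layers. Sec23a, part of the inner layer that binds Sar1 (chromosome 12, 58958383 to 59012017), was at 31.0, 31.7, 21.8, 28.4 and 29.1 TPM in PBS and at 89.0, 112, 84.2, 103 and 92.9 in LGG. The groups were far apart, with the smallest p of all members (1.73, SE 0.129, adjusted p = 4.19e-08). Its paralog Sec23b rose by 1.68, and the cargo-binding Sec24 genes Sec24d, Sec24c and Sec24a by 1.66, 1.5 and 1.24. Sec24d ranged from 38.0 to 47.2 TPM in 4 LGG mice and reached 76.6 in LGG mouse 2, against 11.4 to 16.0 in PBS. Sec31a, the outer cage, rose by 1.59, and the exit-site scaffolds Sec16b and Sec16a rose by 1.40 and 1.13. Of the 11 genes in this list 10 rose and 1 fell, with a median of 1.5 (0.65 with median-of-ratios scaling). The 10 include Sec14l2, which shares only the Sec name and had the largest rise of the list, 1.76 (adjusted p = 1e-04).

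The gene that fell was Sec11c, whose product cuts signal peptides from proteins entering the endoplasmic reticulum and takes no part in coats. Its TPM was 326, 226, 272, 215 and 229 in PBS, 209, 165, 168, 272 and 216 in RG, and 145, 137, 112, 114 and 135 in LGG. Every LGG mouse was below every PBS and RG mouse, while RG and PBS overlapped. The difference was -0.96 for LGG against PBS (SE 0.16, adjusted p = 3.52e-05) and 0.66 for RG against LGG (adjusted p = 0.00188). Sec11c has the shortest transcripts among the tested members, 744 nucleotides, and with the trend on transcript length removed its LGG difference was 0.64, a change of sign.

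On the deposited scale the proton pump divided into 7 subunit genes that rose and 4 that did not. The 11 pump genes made up 0.101% ± 0.00599 of TPM in PBS mice, 0.0991% ± 0.0205 in RG mice and 0.136% ± 0.00443 in LGG mice (SD, n = 5). The largest rise was in Atp6ap1, an accessory subunit that helps assemble V0 (chromosome X, 74297097 to 74304721). It was at 26.9, 23.7, 14.9, 25.9 and 20.4 TPM in PBS, 27.8, 64.4, 39.2, 26.4 and 26.0 in RG, and 66.4, 67.7, 74.0, 94.9 and 75.1 in LGG. LGG stood above both other groups (1.73 against PBS, SE 0.228, adjusted p = 3.52e-06), and RG mouse 2 came close to the lowest LGG mouse.

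Atp6v1b2 and Atp6v1a encode the B and A subunits, which form the ATP-splitting ring of V1. Atp6v1b2 was at 25.1, 28.0, 16.9, 25.2 and 23.0 TPM in PBS, 29.9, 66.5, 41.6, 28.0 and 29.6 in RG, and 65.4, 63.8, 71.1, 78.6 and 78.0 in LGG (1.57 for LGG, SE 0.207, adjusted p = 3.53e-06). Atp6v1a was at 15.8, 14.1, 9.59, 15.3 and 11.2 TPM in PBS, 13.4, 29.9, 17.9, 14.9 and 14.1 in RG, and 29.3, 28.9, 34.1, 44.7 and 34.6 in LGG (1.32, SE 0.206, adjusted p = 1.85e-05). In both genes RG mouse 2 lay within the LGG range and the other RG mice lay nearer to PBS. Atp6v1h, a regulator of the ring, and Atp6v1d, the central shaft, rose by 1.31 and 1.15.

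In the membrane sector, Atp6v0a2, an isoform of the proton channel subunit a found on the Golgi and endosomes, was at 34.9, 40.4, 29.7, 35.9 and 33.1 TPM in PBS, 52.2, 62.8, 56.9, 39.5 and 54.1 in RG, and 91.4, 92.9, 90.0, 124 and 116 in LGG. The LGG mice were highest and 4 of 5 RG mice were above every PBS mouse (1.53 for LGG, SE 0.145, adjusted p = 2.02e-07). Atp6v0c, the main subunit of the proton-carrying ring, was at 130, 147, 87.3, 146 and 127 TPM in PBS, 161, 295, 241, 114 and 106 in RG, and 308, 351, 362, 394 and 335 in LGG (1.47, SE 0.244, adjusted p = 3.6e-05). Its transcripts, at 990 nucleotides, were the shortest of the pump genes that rose, and how reads shared with near copies of it were counted is not given in the sources used here.

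Atp6v0b, which supplies a related subunit of the same ring, went the other way. It was at 292, 232, 268, 238 and 247 TPM in PBS, 215, 159, 194, 244 and 150 in RG, and 199, 219, 189, 145 and 201 in LGG. All LGG mice lay below all PBS mice (-0.43, SE 0.154, adjusted p = 0.0193), so the more abundant of the ring genes in PBS became the less abundant in LGG. The call was lost without PBS mouse 1 or LGG mouse 4, and with the trend on length removed the difference was 0.73.

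The 3 other small subunits did not pass on the deposited scale. Atp6v1g1, in the stalk that holds the ring, was at 282, 250, 253, 242 and 233 TPM in PBS and 239, 205, 251.9, 242 and 236 in LGG (-0.10, adjusted p = 0.582). Atp6v1f, a partner of the shaft, was at 178, 166, 170, 146 and 166 in PBS and 159, 139, 155, 137 and 162 in LGG (-0.13, adjusted p = 0.468). Atp6v0e, a small membrane subunit, was at 83.5, 82.1, 79.2, 80.6 and 84.5 in PBS and 77.7, 85.1, 74.7, 65.0 and 70.9 in LGG (-0.14, adjusted p = 0.386). Their PBS and LGG values overlapped. With median-of-ratios scaling all 3 fell against PBS, at -0.97, -1.0 and -0.99, where the median of all genes tested was 0.40. With the trend on length removed they were at 0.80, 1.45 and 0.86. In that fit all 11 pump genes passed as higher (limma), where 72% of all genes tested did. Their transcripts measure 754 to 1135 nucleotides, and Atp6v0b's 968, whereas the 7 subunits that rose measure 990 to 5345.

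**Figure D2:**
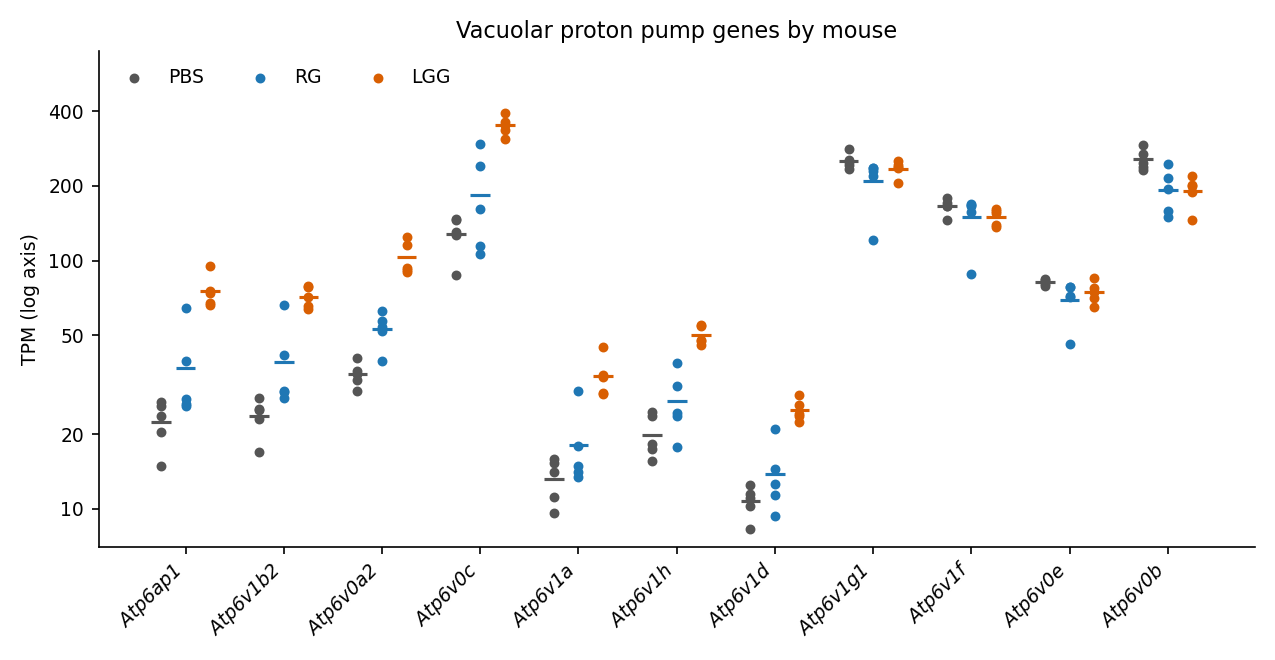
TPM of the 11 vacuolar proton pump genes in each mouse, on a log axis, with bars at group means (PBS, RG and LGG, 5 mice each). From Atp6ap1 to Atp6v1d every LGG mouse lies above every PBS mouse; Atp6v1g1, Atp6v1f and Atp6v0e overlap, and Atp6v0b is lower in LGG, a direction that the length adjustment turns.

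Other genes of the acidic compartment, from a list chosen by function, also rose. Of 18 such genes tested, 17 rose with LGG (median 1.53; 16 rose and 1 fell with median-of-ratios scaling). The β-galactosidase Glb1 rose by 1.89, cathepsin A (Ctsa) by 1.83 and the lysosomal membrane protein gene Lamp1 by 1.46, from 256 ± 47.1 to 696 ± 44.6 TPM (SD, n = 5). Tfeb itself, the regulator that reads the CLEAR element, rose from 3.07 ± 0.599 to 8.06 ± 0.836 TPM (1.16, adjusted p = 0.000146), a difference close to the median of all genes tested, 1.17.

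Clathrin adaptors carry cargo between the Golgi, endosomes and the cell surface, and 8 of 9 adaptor genes rose with LGG (median 1.39, 0.64 with median-of-ratios scaling). Ap1b1, the large subunit of AP-1, the adaptor of the Golgi and endosomes, rose by 1.74 from 10.6 ± 2.17 to 38.5 ± 11.9 TPM (SD, n = 5), with LGG mouse 4 at 59.1. AP-1 subunits Ap1g1, Ap1g2 and Ap1m1 rose by 1.46, 1.37 and 1.26, Ap2b1 of the plasma membrane adaptor by 1.52 and Ap3b1 of the lysosomal adaptor by 1.57. Ap3s1, the small subunit of the last of these, did not pass (99.7 ± 7.3 and 96.9 ± 8.13 TPM, -0.04, adjusted p = 0.73) and was singled out after its value was seen. With the trend on length removed Ap3s1, whose transcripts measure 1152 nucleotides, rose by 0.84 (adjusted p = 1.84e-06), and all 9 adaptor genes passed as higher. Ap5s1, the small subunit of a late endosomal adaptor, rose by 1.26. Among clathrin and coat genes outside the symbol rule 9 of 10 tested rose, including the clathrin heavy chain Cltc (40.3 ± 9.09 to 117 ± 20.3 TPM, 1.53).

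Arf GTPases, which recruit coats, and their regulators rose in 5 of 5 genes (median 1.42, 0.56 with median-of-ratios scaling). Arf6, which acts at the cell surface, was the most abundant of them at 250, 263, 197, 283 and 294 TPM in PBS, 325, 469, 424, 202 and 186 in RG, and 639, 545, 711, 831 and 731 in LGG. LGG was clear of both groups (1.42, SE 0.232, adjusted p = 2.99e-05), while RG straddled PBS, with 3 mice above and 2 near its lower end. The exchange factors Arfgef1 and Arfgef2 rose by 1.27 and 1.20, and the GTPase activator Arfgap3 by 1.54. Of 14 Rab and Arf regulators with other names 11 rose (median 1.21, 0.40 with median-of-ratios scaling).

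Of the 8 Rab GTPases 4 rose with LGG and the others did not pass. Their median was 0.56 on the deposited scale and -0.24 with median-of-ratios scaling, with which 3 rose and 4 fell. Rab6a of the Golgi, Rab10 of polarised secretion, Rab35 of endocytic recycling and Rab43 rose by 1.30, 1.36, 1.30 and 1.23. Rab27a, which docks secretory granules and lysosome-related organelles, was at 14, 11.2, 9.37, 13.1 and 10.7 TPM in PBS, 10.3, 17.1, 13.4, 9.95 and 13.7 in RG, and 11.8, 9.28, 7.48, 13.0 and 12.8 in LGG. The 3 groups overlapped throughout (-0.11 for LGG, SE 0.179, adjusted p = 0.597), although its transcripts, at 3074 nucleotides, are of the length of members that rose. Rab12 (-0.12), Rab28 (-0.14) and Rab9 (-0.31), singled out after their values were seen, did not pass either. The Rab effectors Rab11fip1 and Rab11fip3 and the Rab regulator Rab3gap1 rose by 1.56, 1.38 and 1.20.

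TRAPP complexes activate Rabs at the Golgi and in autophagy, and 5 of 5 subunits rose with LGG (median 1.30, 0.46 with median-of-ratios scaling). Trappc8 was at 11.5, 11.6, 9.69, 10.6 and 9.95 TPM in PBS and 25.2, 24.2, 24.1, 29.5 and 29.8 in LGG, with no overlap (1.23, SE 0.127, adjusted p = 3.74e-07). Trappc11, Trappc9, Trappc10 and Trappc12 rose by 1.39, 1.35, 1.30 and 1.15. Of 7 exocyst, COG and Golgi tethers tested 7 rose, with the vesicle tether Uso1 at 1.41.

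Of 11 Vps genes 10 rose with LGG and 1 fell (median 1.26, 0.44 with median-of-ratios scaling). Vps4b, the ATPase that takes ESCRT filaments apart, rose by 1.40 and its paralog Vps4a by 1.21; the ESCRT-I subunits Vps37c and Vps37b rose by 1.41 and 1.10. Vps18 and Vps41 of the HOPS complex, which fuses late endosomes with lysosomes, rose by 1.36 and 1.26, and Vps52 and Vps53, which tether endosome-derived vesicles at the Golgi, by 1.43 and 1.14. Retromer returns receptors from endosomes, and its subunit Vps26b rose by 1.16 (11.9 ± 1.75 to 27.7 ± 3.78 TPM), a gene chosen after its value was seen. Its partner Vps29 was at 69.4, 56.3, 62.6, 57.1 and 56.4 TPM in PBS and 52.8, 50.9, 42.8, 37.8 and 52.0 in LGG, all below PBS (-0.35, SE 0.153, adjusted p = 0.0491). That call was lost in 10 of 15 fits that left out 1 mouse, and the difference was 0.36 with the trend on length removed. The other ESCRT genes rose in 6 of 6, with Pdcd6ip, an ESCRT partner, at 1.73.

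Sorting nexins, which shape endosomal membranes, rose in 8 of 8 tested (median 1.36, 0.56 with median-of-ratios scaling). Snx9, which works with dynamin in endocytosis, was at 38.3, 39.2, 27.7, 37.0 and 37.1 TPM in PBS, 49.5, 67.3, 58.6, 39.5 and 51.1 in RG, and 113, 116, 119, 110 and 122 in LGG. The LGG mice lay close together and clear of the rest (1.67, SE 0.142, adjusted p = 9.12e-08), and every RG mouse was above every PBS mouse. Snx20 rose by 1.48, Snx4 of the recycling route by 1.39, Snx25 by 1.38, Snx14 and Snx19 by 1.33, and Snx17, an adaptor for receptor recycling, and Snx15 by 1.31.

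SNAREs gave no common direction. Stx12, the endosomal syntaxin, was at 28.5, 34.3, 26.2, 29.5 and 26.8 TPM in PBS and 66.1, 81.0, 64.5, 65.4 and 68.2 in LGG (1.22, SE 0.124, adjusted p = 3.38e-07). Vamp5, best known from muscle, was at 11.9, 9.67, 10.4, 10.9 and 12.8 TPM in PBS and 8.15, 8.31, 8.79, 4.08 and 9.42 in LGG, all below PBS (-0.51, adjusted p = 0.0475). That call was also lost in 10 of 15 fits that left out 1 mouse, and smooth muscle markers summed to 785 to 2630 TPM in PBS and 721 to 1790 in LGG. The synaptic-type Vamp1 did not pass (-0.05, adjusted p = 0.87). Of 6 fusion partners with other names 4 rose with LGG and 2 fell, the fusion genes Use1 (276 ± 34.1 to 162 ± 22.3 TPM, -0.77) and Vti1b (271 ± 22.4 to 203 ± 17 TPM, -0.41). With the trend on length removed neither fell, with Use1 (964 nucleotides) at 0.39 and Vti1b (1490 nucleotides) at 0.08. Of 13 COPII regulators and cargo receptors 8 rose, among them Surf4 (1.79), Lman1 (1.74) and the retrieval receptor Kdelr1 (1.51).

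The members that rose had longer transcripts than those that did not, a median of 3331 nucleotides (990 to 8770, 67 genes) against 1208.5 (744 to 3074, 14 genes). Across the 81 members the LGG difference had a Spearman correlation of 0.357 with transcript length, and across 3509 genes tested it was 0.504; genes of a library share its RNA, and no test was made. At a limit of 1500 nucleotides, chosen after the data were seen, 64 of 67 longer members rose with LGG, where 72.1% of all longer genes did. Of 14 shorter members 3 rose (Atp6v0c, Snx15 and Ap5s1) and 4 fell, where 10.8% of all shorter genes rose. The median of the shorter members was -0.14, where that of all 982 shorter genes tested was lower, at -0.48. The 3 longer members that did not rise were Rab27a, Rab12 (2040 nucleotides) and Vamp1 (2394 nucleotides). With the trend on length removed 75 members rose and 0 fell, where 72% of all genes rose and 5.59% fell. The median was 1.19 for the members and 1.12 for all genes. In that fit Rab27a was at -0.31, Rab12 at -0.06 and Vamp1 at -0.15, and none of the 3 passed.

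**Figure D3:**
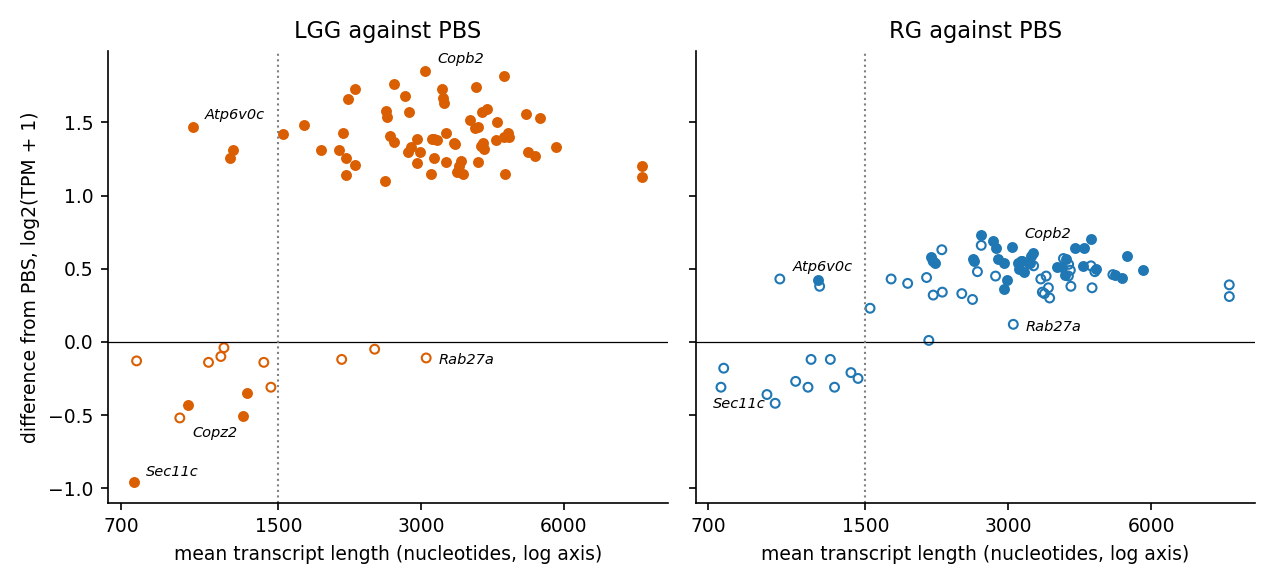
Log2 difference from PBS against mean transcript length (log axis) for the 81 tested genes, in LGG (left) and RG (right), 5 mice a group; filled points passed the test and the dotted line marks 1500 nucleotides. In LGG nearly all longer genes lie above 1.10 and most shorter ones below 0, with Atp6v0c and Rab27a apart from the genes of their length; removing the length trend turns Sec11c to 0.64.

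With RG the same genes were compared with the same 5 PBS mice, so the values above and below share their controls. Of the 81 genes 35 rose (43.2%) and 0 fell (limma), where 22.8% of all genes tested rose and 4.08% fell. At an unadjusted limma p under 0.05, 51 members were higher and 1 lower, and 1758 of the 3530 genes tested differed in either direction. The direction rests on how the values are scaled. By median-of-ratios scaling 0 members rose (3 at an unadjusted p under 0.05) and 8 fell, where 1.19% of all genes rose and 16.1% fell. With upper-quartile scaling 6 members rose and 5 fell, where 3.26% of all genes rose and 13.3% fell. Every RG mouse was above every PBS mouse in 19 members (23.5%), against 13.0% of all genes. Every RG mouse was below every PBS mouse in Atp6v0e alone (1.23%), against 2.72% of all genes. The median of the members was 0.46 and that of all genes 0.38. Enterocyte markers rose in 14 of 17, no Paneth marker passed and 1 of 4 goblet markers fell, and their part in the result was not tested.

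The COPI coat was the family with the most calls, 6 of 7 genes at a median of 0.58 (0.26 with median-of-ratios scaling). By limma 0 of the 7 passed as higher with that scaling and 3 with upper-quartile scaling. Copa was at 35.8, 68.4, 46.0, 39.5 and 56.9 TPM in the RG mice, each above all PBS mice (0.70, SE 0.173, adjusted p = 0.024). Copb2 was at 43.3, 78.1, 61.4, 42.9 and 54.9 TPM, also without overlap (0.65, adjusted p = 0.0274). In both, RG mouse 2 was highest and mouse 1 or 4 lay just above PBS. Sec23a varied little among RG mice, at 37.1, 44.2, 43.5, 37.8 and 45.5 TPM (0.54, SE 0.129, adjusted p = 0.0225). Of the COPII and other Sec genes 5 of 11 rose, among them Sec23b (0.69), Sec24c and Sec31a (both 0.64) and Sec24d (0.54).

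Among adaptors 5 of 9 rose (median 0.53), and Ap1g2 had the largest rise of all members, 0.73 (adjusted p = 0.0346). It was at 7.46, 7.73, 7.62, 7.06 and 7.42 TPM in PBS, 9.75, 15.1, 9.05, 11.4 and 24.6 in RG, and 17.3, 19.3, 16.2, 31.4 and 23.1 in LGG. PBS mice were nearly equal, and RG mouse 5 reached the LGG range. Sorting nexins rose in 5 of 8 (median 0.48): Snx25 was at 15.1, 17.4, 15.2, 13.9 and 17.1 TPM in RG and 10.6, 10.5, 10.6, 12 and 11.2 in PBS (0.48, adjusted p = 0.0225). TRAPP subunits rose in 4 of 5 (median 0.46) and Vps genes in 3 of 11 (median 0.45). Arf GTPases and their regulators rose in 2 of 5 (median 0.44). In these other families 1 gene each rose: Rab6a of the Rab GTPases (0.42), Rab11fip3 of the Rab effectors and regulators (0.52) and Stx12 of the SNAREs (0.36). With median-of-ratios scaling no gene of these families passed as higher (limma), and the median of the Rab GTPases, 0.27 on the deposited scale, was -0.06.

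The proton pump had few calls in RG. Of its 11 genes 2 rose, Atp6v1b2 (0.64, adjusted p = 0.0379) and Atp6v0a2 (0.59, adjusted p = 0.024), with a median of 0.38, equal to that of all genes tested. Atp6ap1 (0.63) and Atp6v0b (-0.42) each had an adjusted p of 0.0501. The small subunits Atp6v1f, Atp6v1g1 and Atp6v0e were at 88.0, 121 and 46.2 TPM in RG mouse 5, against 157 to 169, 220 to 236 and 71.3 to 78.1 in the other RG mice, and none passed. With median-of-ratios scaling 3 pump genes fell, namely Atp6v0b, Atp6v0e and Atp6v1g1.

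The RG mice were uneven. Taken as the median difference of the members from the PBS mean, the RG mice were at 0.26, 0.85, 0.47, 0.15 and 0.47, the PBS mice at 0.13, 0.03, -0.29, 0.11 and -0.01, and the LGG mice at 1.18, 1.15, 1.27, 1.64 and 1.41. RG mouse 4 lay just above the highest PBS mouse, and RG mouse 2, highest in 56 of the 81 members, lay closest to LGG. In RG mouse 2, the library high in T cell markers, the same median over all genes tested was 0.59, against 0.09 to 0.30 in the other RG mice, and the part of these cells in the result was not tested. PBS mouse 3 was lowest of its group in 60 members, and without it 0 members passed as higher with RG (limma), where 1.14% of all genes did. In that fit 39 members were higher at an unadjusted p under 0.05, and 1200 of 3510 genes differed in either direction. Without RG mouse 2, 3 members passed as higher, where 4.7% of all genes did. Without RG mouse 4, 49 members passed as higher, where 36.4% of all genes did. Of the 35 genes 0 passed in every fit with 1 mouse left out. Copa, Sec23a and Snx25 were lost only without PBS mouse 3 (limma, adjusted p = 0.0706, 0.0687 and 0.0665). With PBS mouse 1 and RG mice 2 and 5 left out together, 0 of all genes and 0 members passed (limma). There 27 members were higher at an unadjusted p under 0.05, and 963 of 3436 genes differed in either direction. The median of the members was 0.34, where that of all genes was 0.25.

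**Figure D4:**
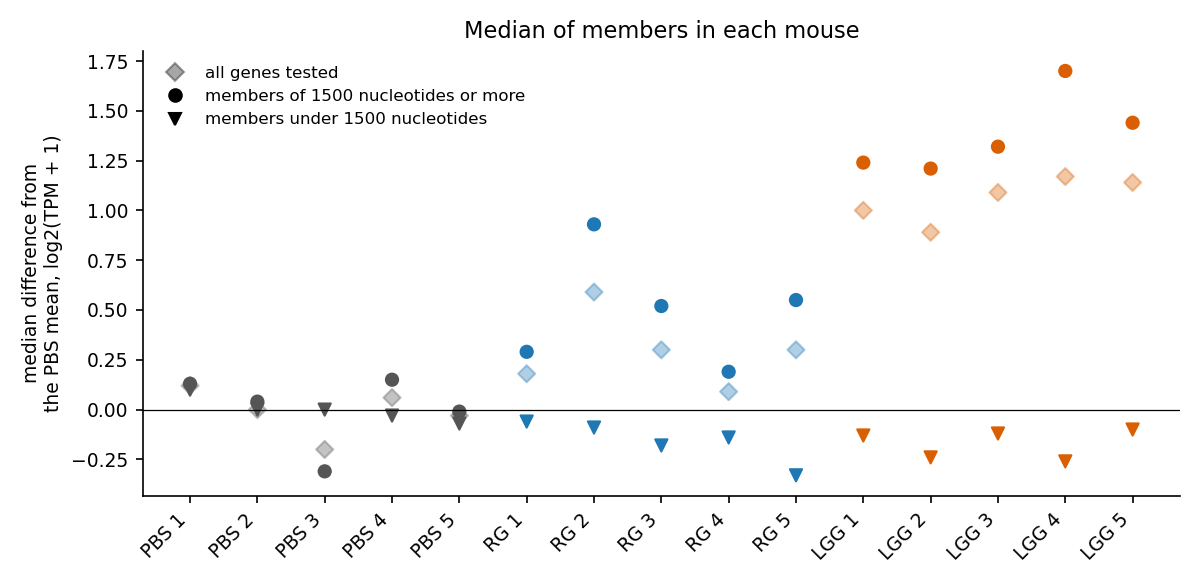
Median log2 difference from the PBS mean in each of the 15 mice, for members with transcripts of 1500 nucleotides or more (circles), shorter members (triangles) and all genes tested (diamonds). Longer members lie at 0.19 to 0.93 in RG and 1.21 to 1.70 in LGG. The medians of all genes of that length are 0.15 to 0.76 and 1.10 to 1.51, and the members exceed them by 0.03 to 0.19. Shorter members lie at -0.33 to -0.06 in RG and -0.26 to -0.10 in LGG. The medians of all shorter genes are -0.41 to -0.07 in RG and -0.56 to -0.34 in LGG.

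Set directly against each other, RG was below LGG in most of the machinery. Of 81 genes 67 were lower in RG (82.7%) and 1, Sec11c, was higher, where 53.5% of all genes were lower and 8.19% higher. RG and LGG mice did not overlap in 52 members with RG lower (64.2%), against 36.4% of all genes. The median was -0.87, where that of all genes was -0.72. Copb2 differed most, by -1.20, with Arf6 at -1.19, Sec23a at -1.18, Ap1b1 at -1.17 and Snx9 at -1.13. Atp6v0b had nearly the same mean in both groups (192 ± 39.1 and 191 ± 27.6 TPM, SD, n = 5; 0.00, SE 0.154), and the 3 other small pump subunits did not pass (-0.21 to -0.05). With upper-quartile scaling, which sets the median of all genes to -0.08, 17 members were lower and 14 higher. Of all genes tested 15.7% were lower and 35.2% higher with it. By median-of-ratios scaling 45 members were lower and 12 higher, where 29.9% of all genes were lower and 30.8% higher.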

How the data were processed

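RNA of whole ileum from 15 mice was measured, 5 in each of 3 groups taken from the labels. The authors deposited TPM for 4178 genes, per the file headers, a part of each library. The submitters' processing notes name GRCm38 (mm10). Not given in the sources used here are the aligner, the counter, its strand setting and how shared reads were counted. TPM keeps no depth. The rule by which the listed genes were chosen is not given either.

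From these values log2(TPM + 1) was fitted with limma 3.58.1 (R 4.3.3, trend, robust) in 1 model of 3 groups, over 3530 genes with a TPM of at least 1 in 5 or more libraries. P-values are two-sided and adjusted over all genes tested by Benjamini-Hochberg, with a threshold of 0.05, and every adjusted p in the text is limma's. A fold change is a difference on the log2(TPM + 1) scale and understates the change of low genes. The fit was tested on simulated data. Coordinates and mean transcript lengths came from GENCODE annotation of GRCm38 (4173 of the listed genes found), and promoters from RefSeq.

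The members and lists were chosen with earlier results of these data known. Genes were named by role: the 6 largest changes each way per comparison, the 2 smallest p per role list, all proton pump genes and a fixed set. Other members are named to account for their family, and those singled out after their values were seen are marked. Same-numbered mice are separate animals, and their deviations did not pair (correlations of -0.455 to 0.288). No pair of libraries was identical. Alternatives varied the pseudocount, filter, scaling, model, length adjustment and the mice left out. A gene withheld from reporting is not reported here.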

Additional observations from a re-analysis of the deposited data

Results flagged for a closer look

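Single mice stood apart in 15 of 150 sets of 5 values (50 named genes in 3 groups, 10%), by a gap to the nearest mouse above 0.71 of the group's range. Chance gives about 1 in 20, and these genes are not independent, so a mouse that stands apart does so in several genes.

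LGG mouse 4 was above the other LGG mice in Ap1b1 (59.1 against 30.5 to 37.5 TPM), Ap5b1 (16.0 against 11.6 to 12.4), Copa (133 against 94.9 to 104), Rab10 (132 against 79.8 to 94.9) and Sec23b (47.6 against 32.8 to 36.9). It was below them in Vamp5 (4.08 against 8.15 to 9.42). LGG mouse 2 was above the others in Sec24d (76.6 against 38.0 to 47.2) and Stx12 (81.0 against 64.5 to 68.2).

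RG mouse 5 was below the other RG mice in the small pump subunits Atp6v0e (46.2 against 71.3 to 78.1), Atp6v1f (88.0 against 157 to 169) and Atp6v1g1 (121 against 220 to 236), and above them in Vamp1 (6.68 against 0.995 to 2.30). RG mouse 2 was above them in Ap1m1 (34.4 against 9.37 to 15) and in Atp6v1a (29.9 against 13.4 to 17.9). PBS mouse 3 was below the other PBS mice in Snx9 (27.7 against 37.0 to 39.2).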

How the results depend on the processing

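For LGG against PBS, 54 to 75 members rose in every alternative, and 67 in each fit without 1 mouse. The 4 that fell became 2 with no filter, 13 with median-of-ratios or upper-quartile scaling and 1 when values were rescaled to the listed sum. They became 0 with the length trend removed (limma) and 1 to 5 without 1 mouse. Of all genes tested, 39.4% and 39.3% fell with median-of-ratios and upper-quartile scaling, and 5.59% with the length trend removed. With the length trend removed, Atp6v0b (0.73), Atp6v0e (0.86), Atp6v1f (1.45), Atp6v1g1 (0.80), Sec11c (0.64), Vamp5 (0.24) and Vps29 (0.36) changed sign, as did Copz2 (0.70), Ap3s1 (0.84), Rab28 (0.45), Rab9 (0.23), Use1 (0.39) and Vti1b (0.08). Of 71 calls 68 held in every fit without 1 mouse. For RG against PBS, the 35 that rose became 6 with upper-quartile scaling, 10 with only the 2 groups compared and 18 with the length trend removed. Of all genes tested 3.26%, 9.72% and 16.8% rose in these fits. The count was 0 with median-of-ratios scaling (limma, 3 at an unadjusted p under 0.05) or with PBS mouse 1 and RG mice 2 and 5 left out. Without 1 mouse 0 to 49 members rose, where 1.14% to 36.4% of all genes tested did. The count lower was 1 with a pseudocount of 0.1 or 0.5 (Atp6v0b), 8 and 5 with the median-of-ratios and upper-quartile scalings, and 0 to 3 without 1 mouse. For RG against LGG, 65 to 67 were lower without 1 mouse and 17 with upper-quartile scaling. The 1 higher became 12 and 14 with median-of-ratios and upper-quartile scaling, and 0 with the length trend removed or rescaling. There Atp6v0b and Sec11c were at -0.66 and -0.30 with the length trend removed, Atp6v0e, Atp6v1f and Atp6v1g1 at 0.55, 0.64 and 0.48 with upper-quartile scaling, and Atp6v1f at 0.47 with median-of-ratios scaling. The cause of these changes was not tested. With a replicate block 3 members rose in RG against PBS (Copa, Sec23a and Sec24c), while 67 rose and 3 fell with LGG; libraries correlated best with their own number in 6 of 30 checks. The rescaling and the joint removal of 3 mice were chosen after seeing the data. Depth is unknown, so no counting error can be given.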
